A study of Mus musculus with 18 samples.

Results

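Abca1 and 5 further genes of the liver X receptor (LXR) pathway were followed over 18 arrays of mouse F9 cells. Abca1 was chosen by its measured fall early with all-trans retinoic acid (ATRA), and Abcg1, Srebf1, Mylip and the LXR genes Nr1h3 and Nr1h2 were listed beside it by symbol. Of these 6 genes, 5 had a probe set with 1 gene symbol, out of 19938 genes with such a probe set, and Nr1h2 was not analysed here. The 5 had 1 probe set each and no filter on low values was set. The early ATRA values of Abca1, against vehicle and against BMS641, are therefore given as a description with no test.

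LXRs are nuclear receptors that bind oxysterols, the oxidised forms of cholesterol, and sit on DNA with a retinoid X receptor (RXR), the same partner that retinoic acid receptors (RARs) use. When bound by ligand they raise the transcription of genes that move cholesterol out of cells, drive fatty acid synthesis and reduce lipoprotein uptake, and without ligand they can hold some of these genes down. Nr1h3 encodes LXRα and Nr1h2 encodes LXRβ. ABCA1 passes cholesterol and phospholipid to apolipoproteins, ABCG1 passes sterol to lipoprotein particles, Srebf1 encodes the lipogenic factors SREBP-1a and SREBP-1c, and MYLIP (also called IDOL) is a ubiquitin ligase for lipoprotein receptors.

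F9 is an embryonal carcinoma line that differentiates towards endoderm when given retinoic acid. The cells received ATRA at 1 µM, which activates all RARs, BMS961 at 0.1 µM, labelled as specific for RARγ, BMS753 at 1 µM, labelled as specific for RARα, BMS641 at 1 µM, labelled as specific for RARβ, or the ethanol vehicle. Each retinoid had 1 array at 2, 6, 24 and 48 h, and vehicle had 2 arrays, both at 48 h. Early below means 2 and 6 h and late means 24 and 48 h. At 2, 6 and 24 h a comparison with vehicle also compared times in culture. BMS961 was not at the dose of the others, so it was set beside them and not tested against them.

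Levels are the deposited log2 values per probe set, so a difference of 1 is 2-fold. Precision is set by how few arrays there are. Nothing in the labels ties the vehicle arrays to separate cultures, so p-values measure only the spread between these samples. Over the 12146 probe sets with no listed gene, vehicle replicate 1 correlated with the ATRA arrays at a mean r of 0.322 and with the BMS arrays at -0.189, and vehicle replicate 2 at -0.262 and 0.037. The ATRA arrays thus sat with vehicle replicate 1. The array set used below as a block follows this pattern in the data and is not given by the labels. It puts vehicle replicate 1 with the ATRA arrays and vehicle replicate 2 with the BMS arrays. Member results that rest on vehicle are also given against 1 vehicle array alone where that changes a call. The 11 embryonal carcinoma markers measured averaged 10.29 to 10.83 in ATRA arrays, 10.47 to 11.02 in BMS arrays and 10.84 to 11.16 in vehicle arrays, so the markers of the labelled cell type were present on every array. The 7 macrophage markers, a cell type where LXR targets are well studied, averaged 4.56 to 4.74 in ATRA arrays, 4.64 to 4.89 in BMS arrays and 4.72 to 4.74 in vehicle arrays. Cyp26a1, a retinoid target that degrades retinoic acid, read 10.06, 10.30, 10.97 and 12.01 over the ATRA times, against 5.05 and 4.85 with vehicle.

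The start regions of the genes give the sequence context. Those of Abca1 and Srebf1 are printed because a pair of AGGTCA-like repeats spaced by 4 bases, the arrangement on which LXR and RXR bind, stood in these windows and in no window of the other members with one. The 250 bases before a RefSeq start site are shown from 5′ to 3′ on the gene's strand (GRCm38.p6, minus strand, chr4:53159896-53160145 for Abca1 and chr11:60210472-60210721 for Srebf1). The start site of the Abca1 window lies 93 bases inside the RefSeq gene record, and that of the Srebf1 window, 1 of 3 for this gene, 13715 bases inside its record, so the Srebf1 stretch belongs to an internal start. Capitals mark the matched element.
Abca1: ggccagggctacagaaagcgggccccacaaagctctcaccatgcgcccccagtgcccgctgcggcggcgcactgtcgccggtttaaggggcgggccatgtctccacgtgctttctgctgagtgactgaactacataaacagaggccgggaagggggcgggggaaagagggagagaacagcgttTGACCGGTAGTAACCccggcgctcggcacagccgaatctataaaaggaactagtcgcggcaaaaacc
Srebf1: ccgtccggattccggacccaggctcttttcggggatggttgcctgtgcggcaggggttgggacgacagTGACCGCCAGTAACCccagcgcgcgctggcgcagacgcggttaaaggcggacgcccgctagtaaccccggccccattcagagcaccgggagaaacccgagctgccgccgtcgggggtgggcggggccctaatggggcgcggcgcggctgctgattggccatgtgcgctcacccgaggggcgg
The element lies at positions -67 to -53 of Abca1 and -182 to -168 of Srebf1, counted from the start site. The letters searched on both strands were GGTTANNNNNGGTCA, chosen after these windows had been read, and 16 of 32851 RefSeq windows (0.0487%), which cover the bases just before and after each start, held them. The consensus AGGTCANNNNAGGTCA was found in 5 windows (0.0152%) and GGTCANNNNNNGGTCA, the spacing that RARs prefer, in 33 windows (0.1%), and none of these was a window of Abca1, Nr1h3, Srebf1 or Mylip. The Abca1 window also held an E-box, CACGTG, at -147 to -142, which 7.15% of windows held. A match of letters is a description of the window and no sign of binding.

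Abca1, on chromosome 4 (RefSeq GRCm38.p6, 53030789 to 53159988; the build behind the arrays is not given in the sources used here), was lower with every retinoid than with vehicle. With ATRA its level was 7.42 at 2 h, 6.74 at 6 h, 8.0 at 24 h and 7.78 at 48 h. With BMS961 it was 8.41, 7.84, 8.20 and 8.35 at the same times, with BMS753 it was 8.25, 8.10, 8.39 and 8.45, and with BMS641 it was 8.41, 8.12, 8.52 and 8.45. The vehicle arrays read 9.12 and 8.89. All 16 retinoid arrays lay below both vehicle arrays, as for 65 genes (0.326% of 19938), and the groups did not overlap. That share rests in part on the early ATRA and vehicle values by which Abca1 was chosen.

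Ordered from low to high, the levels began with ATRA at 6 h, 2 h and 48 h, followed by BMS961 at 6 h and ATRA at 24 h. The vehicle arrays closed the order, 0.37 above BMS641 at 24 h. Both early ATRA arrays lay below the other 16 arrays, as for 427 genes (2.14%), a count that repeats what Abca1 was chosen for. Between ATRA at 48 h and BMS641 at 24 h no neighbouring levels differed by more than the gap of 0.23 between the vehicle arrays. The order of near neighbours there is thus not resolved, though the stretch as a whole runs from 7.78 to 8.52.

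**Figure D1:**
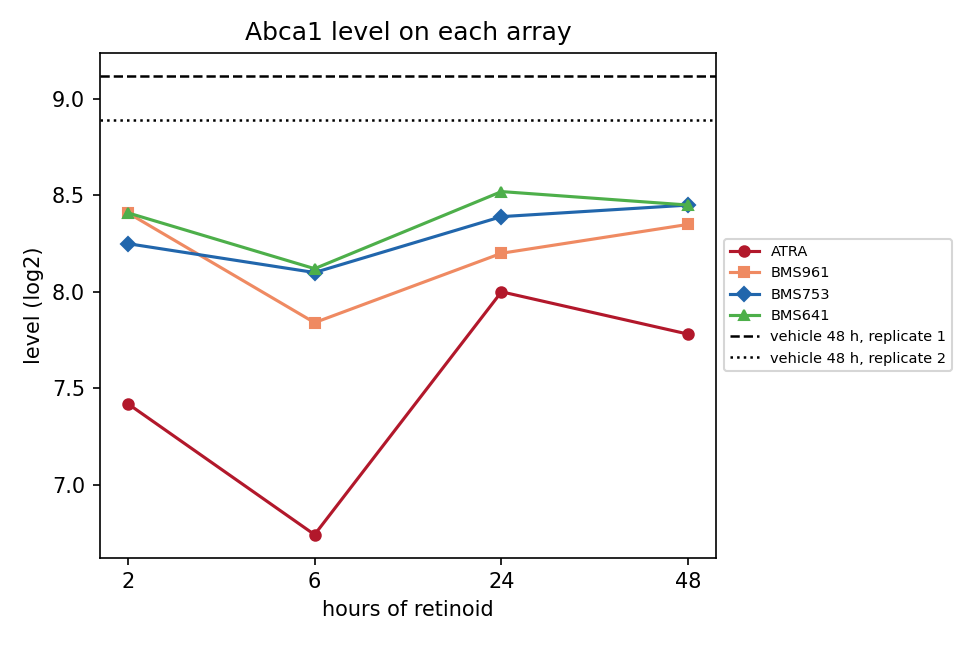
Abca1 level (log2, vertical axis) by hours of retinoid (horizontal axis, times evenly spaced), with 1 point for each retinoid array and a horizontal line for each vehicle array, both at 48 h. The ATRA points run from 6.74 to 8.0, the BMS points from 7.84 to 8.52, and the vehicle lines stand above them at 9.12 (dashed, replicate 1) and 8.89 (dotted, replicate 2).

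As folds, Abca1 at 2 h of ATRA was 3.26 times lower than vehicle replicate 1 and 2.78 times lower than vehicle replicate 2. At 6 h it was 5.21 and 4.43 times lower, at 24 h 2.18 and 1.86 times lower, and at 48 h 2.53 and 2.15 times lower. Genes at least 2-fold below both vehicle arrays made up 0.261% at 2 h, 0.196% at 6 h and 0.582% at 48 h, and Abca1 was the only member among them. The shares at 2 and 6 h repeat what Abca1 was chosen for. With BMS961 at 6 h Abca1 was also over 2-fold below both vehicle arrays, as were 13 genes (0.0652%).

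The lowest array of each retinoid was the one at 6 h, a shape that 145 genes (0.727%) had with all 4 retinoids. The ATRA part of this shape uses the early values by which Abca1 was chosen. From 2 to 6 h the level moved by -0.68 under ATRA, -0.57 under BMS961, -0.14 under BMS753 and -0.29 under BMS641. From 6 to 24 h it moved by 1.26 under ATRA, 0.37 under BMS961, 0.29 under BMS753 and 0.40 under BMS641. The ATRA return was the widest of these, and it left Abca1 below vehicle.

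In the late window, which the choice of Abca1 did not use, Abca1 with ATRA was 1.12 ± 0.15 (SE) lower on the log2 scale than with vehicle (2.17-fold; limma, adjusted p = 0.00313; 95% interval -1.45 to -0.79). The vehicle arrays are those of the choice, so this is no independent evidence of its direction. limma called 1.4% of genes lower and 3.31% higher in that comparison, and Abca1 and Mylip were the 2 members called. Abca1 stayed called against vehicle replicate 1 alone (-1.23, adjusted p = 0.00972) and against vehicle replicate 2 alone (-1.0, adjusted p = 0.00298). Markers of another cell type moved in the same window. The 15 primitive and parietal endoderm markers averaged 7.42, 6.73, 7.49 and 9.85 over the ATRA times, 6.54 to 8.94 in BMS arrays, and 7.44 and 6.5 with vehicle. Of these 15, 4 were called higher late with ATRA, beside 3.31% of all genes. Their vehicle arrays differed by a median of 0.84, with replicate 1 the higher, so their changes turned on the vehicle array. Of the 11 embryonal carcinoma markers 6 were called lower late with ATRA, beside 1.4% of all genes. The direction of some of the 11 turned with the vehicle array used. At 2 and 6 h, the arrays with the lowest Abca1, the ATRA means of the endoderm list lay between those of the vehicle arrays. Those of the embryonal carcinoma list, 10.83 and 10.79, lay below both vehicle means, 11.16 and 10.84. The part of these markers in the Abca1 values was not tested, and in bulk RNA fewer cells of a type and less RNA per cell cannot be told apart.

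Abca1 fell by 0.73 ± 0.15 with BMS961 late (limma, adjusted p = 0.0425), where 0.446% of genes were called lower and 0.818% higher. The call held against vehicle replicate 1 alone (-0.84, adjusted p = 0.0265) but not against vehicle replicate 2 alone (-0.61, adjusted p = 0.0987), and 11 of the 18 single arrays ended it when left out, the largest adjusted p being 0.374 without BMS961 at 24 h. The late change was -0.59 ± 0.15 with BMS753 (adjusted p = 0.21), where 0.186% of genes were called, and -0.53 ± 0.15 with BMS641 (adjusted p = 0.995). With BMS641 late limma called 0.0% of genes in either direction, and 916 genes had an unadjusted p under 0.05.

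Early, Abca1 changed by -0.89 with BMS961 (adjusted p = 0.129), -0.83 with BMS753 (adjusted p = 0.42) and -0.74 with BMS641 (adjusted p = 0.618), none of them called. limma called 0.0401% of genes early with BMS961 and 0.0% with BMS753 and with BMS641, where 1115 and 1501 genes had an unadjusted p under 0.05. Against vehicle replicate 1 alone the 3 early changes were called, at -1.0, -0.95 and -0.86 (adjusted p = 0.00828, 0.0131 and 0.0165). Against vehicle replicate 2 alone they were -0.77, -0.72 and -0.62 (adjusted p = 0.272, 0.708 and 0.797). Late against early, Abca1 differed by 0.16 with BMS961, 0.24 with BMS753 and 0.22 with BMS641, and none was called among 0.767%, 0.00502% and 0.0% of genes, with 390 genes at an unadjusted p under 0.05 for BMS641.

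Against BMS641 at the same time and dose, Abca1 with ATRA was 1.99 times lower at 2 h, 2.60 times lower at 6 h, 1.43 times lower at 24 h and 1.58 times lower at 48 h. At 6 h, 0.737% of genes were at least 2-fold lower with ATRA than with BMS641. Abca1 was lower with ATRA than with each BMS compound at all 4 times, as were 1650 genes (8.28%). Both shares use early ATRA values, by which Abca1 was chosen. The late difference, which uses neither the early arrays nor the vehicle in its means, was -0.59 ± 0.15 (limma, adjusted p = 0.0241; 95% interval -0.92 to -0.26), where 6.98% of genes were called lower and 7.81% higher. With the array set as a block, which subtracts the difference between the vehicle arrays, it was -0.82 and not called (adjusted p = 0.518), and with that block 13 genes were called in all. The call also ended without ATRA at 48 h (-0.46, adjusted p = 0.17), without BMS641 at 24 h (-0.56, adjusted p = 0.141) and without BMS641 at 48 h (-0.62, adjusted p = 0.157). BMS753 and BMS641 late differed by -0.06 in Abca1 (limma, adjusted p = 1; 95% interval -0.39 to 0.27), where 0.0% of genes were called and 810 had an unadjusted p under 0.05. In ATRA late against BMS641 late, 11 of the 15 endoderm markers were called higher and 6 of the 11 embryonal carcinoma markers lower, with list medians of 1.7 and -0.68. With the array set as a block 0 of either list were called, at medians of 1.12 and -0.75. The part of these markers in the Abca1 and Mylip differences was not tested. The 2 tested pairs of retinoids at a matched dose were each adjusted over all genes. ATRA against BMS753, also at 1 µM, was not tested.

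Mylip, on chromosome 13 (45389742 to 45411940), rose late with ATRA. Its level with ATRA was 6.20 at 2 h, 6.37 at 6 h, 6.93 at 24 h and 7.31 at 48 h. BMS961 gave 6.33, 6.41, 6.41 and 6.61, BMS753 gave 6.42, 6.16, 6.43 and 6.59, BMS641 gave 6.49, 6.33, 6.22 and 6.21, and vehicle gave 6.62 and 6.46. Both late ATRA arrays were above the other 16 arrays, as for 1264 genes (6.34%).

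The late rise of Mylip with ATRA over vehicle was 0.58 ± 0.14 (1.5-fold; limma, adjusted p = 0.0368). Against vehicle replicate 2 alone it was 0.66 (adjusted p = 0.0171), and against vehicle replicate 1 alone 0.50, which was not called (adjusted p = 0.24). In all 10 of the 18 arrays ended the call when left out, and without ATRA at 48 h the rise was 0.45 (adjusted p = 0.28). Against BMS641 late the difference was 0.90 ± 0.14 (1.87-fold; adjusted p = 0.00332), and with the array set as a block 0.74 (adjusted p = 0.539). Without BMS641 at 48 h it was 0.77 (adjusted p = 0.0787). With the other retinoids late, Mylip changed by -0.03 with BMS961, -0.03 with BMS753 and -0.32 with BMS641 against vehicle, none called. Abca1 and Mylip, both listed as LXR targets, were thus called in opposite directions in both late ATRA comparisons, which share the ATRA arrays.

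Among the receptors of lipoprotein particles that MYLIP marks for breakdown, Vldlr was 0.80 higher with ATRA than with BMS641 late and called, and 0.13 with the array set as a block (adjusted p = 0.925). Against vehicle late with ATRA, Vldlr changed by 0.55 and Lrp8 by -0.27, and neither of these 2 was called against both vehicle arrays. Against replicate 2 alone Vldlr stood at 0.89 and Lrp8 at -0.62, and against replicate 1 alone at 0.21 and 0.08.

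Srebf1, on chromosome 11 (60199084 to 60224186), was the member whose vehicle arrays lay farthest apart. Its level with ATRA was 8.55 at 2 h, 8.17 at 6 h, 7.64 at 24 h and 8.01 at 48 h. The 12 BMS arrays lay between 8.60 and 9.04. The lowest of them was 0.04 above ATRA at 2 h, a gap narrower than that between the vehicle arrays. The vehicle arrays read 7.62 and 8.69, so one sat with late ATRA and the other within the BMS range. The vehicle pair differed 2.11-fold, with replicate 1 the lower, and 1.78% of genes were at least 2-fold lower in that array.

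Against 1 vehicle array alone, the late change of Srebf1 turned its sign for ATRA and BMS641 and stayed positive for BMS961 and BMS753. The late ATRA change was -0.33 ± 0.26 (limma, adjusted p = 0.553) against both, 0.20 (adjusted p = 0.68) against replicate 1 and -0.87 (adjusted p = 0.00397) against replicate 2. With BMS961, BMS753 and BMS641 late it was 0.71, 0.69 and 0.50 against both and not called. It was 1.24, 1.22 and 1.03 against replicate 1, all called (adjusted p = 0.00405, 0.00663 and 0.00915), and 0.17, 0.15 and -0.04 against replicate 2, none called. ATRA late against BMS641 late gave -0.83 ± 0.26 (adjusted p = 0.0525), and 0.24 with the array set as a block (adjusted p = 0.786). No vehicle array enters the means of this difference, but the gap of the vehicle pair enters the spread of the fit. Without vehicle replicate 1, and likewise without replicate 2, it was -0.83 ± 0.13 and on the called side of the threshold.

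Abcg1, on chromosome 17 (31057694 to 31117984), was lowest with ATRA at 2 h. Its level with ATRA was 6.81 at 2 h, 7.39 at 6 h, 7.66 at 24 h and 7.29 at 48 h. BMS961 gave 7.84, 7.35, 7.54 and 7.21, BMS753 gave 8.03, 7.66, 7.82 and 7.63, BMS641 gave 7.98, 7.96, 7.76 and 7.76, and vehicle gave 7.57 and 8.03. Retinoid and vehicle arrays overlapped, and the vehicle arrays were 0.47 apart. Late against vehicle, ATRA gave -0.32 (adjusted p = 0.506), BMS961 -0.42, BMS753 -0.08 and BMS641 -0.04, and ATRA late against BMS641 late was -0.28 (adjusted p = 0.473). limma called none of these.

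Nr1h3, on chromosome 2 (91184061 to 91202829), varied least of the members and was the lowest of them. Its mean of 5.06 stood at percentile 36.9 of all genes, where the median gene was at 5.95. Only 7.5% of genes had a smaller SD over the arrays. Its level was 4.95 to 5.17 with ATRA, 5.03 to 5.16 with BMS961, 4.83 to 5.25 with BMS753, 4.92 to 5.09 with BMS641, and 5.08 and 5.18 with vehicle. The groups overlapped. No late change of Nr1h3 against vehicle exceeded 0.14 in size, with intervals such as -0.42 to 0.25 for ATRA, and none was called. No detection calls were used, so a steady low level and array background cannot be told apart here.

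**Figure D2:**
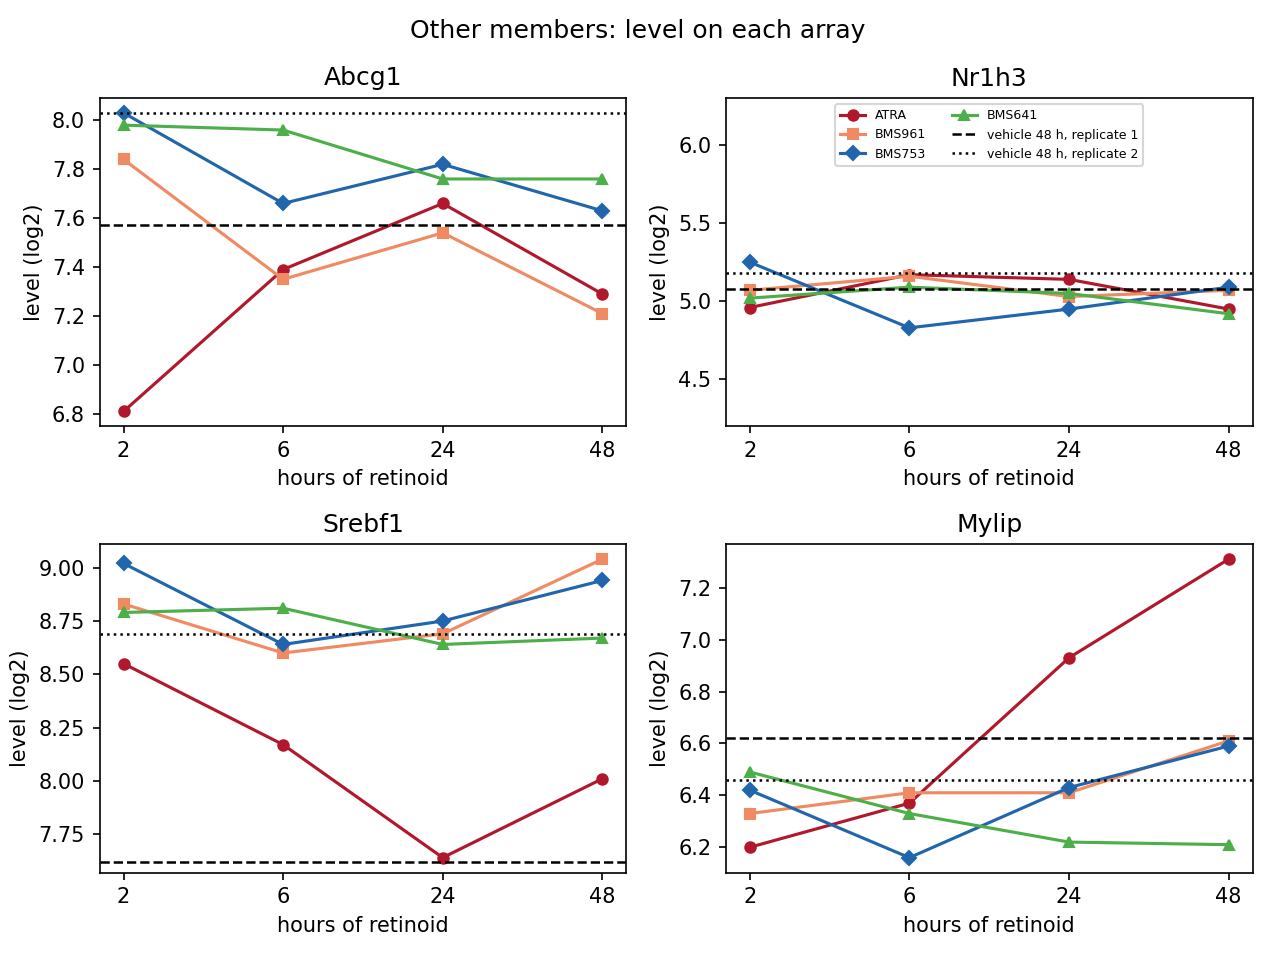
Levels (log2, vertical axes) of Abcg1, Nr1h3, Srebf1 and Mylip by hours of retinoid (horizontal axes, times evenly spaced), with 1 point for each retinoid array and a dashed and a dotted line for vehicle replicates 1 and 2 at 48 h. Mylip with ATRA stands at 6.93 and 7.31 late, and Srebf1 with ATRA at 7.64 and 8.01 late, beside vehicle lines at 7.62 and 8.69.

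**Figure D3:**
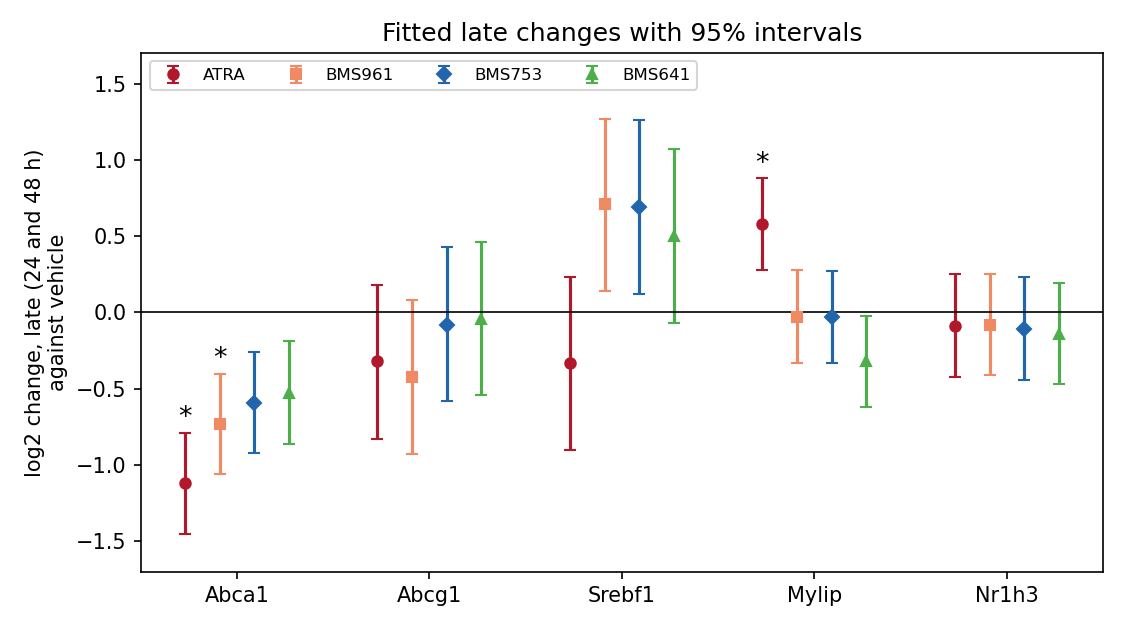
Late change (log2, with 95% intervals from limma) of the 5 members (horizontal axis) for each retinoid against vehicle, with an asterisk where the adjusted p was under 0.05. Abca1 with ATRA (-1.12) and with BMS961 (-0.73) and Mylip with ATRA (0.58) carry one, while Nr1h3 lies within 0.14 of 0 with each retinoid.

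The further genes of the pathway were described by list. Of 21 other LXR targets measured, 0 were called late with ATRA against vehicle, beside 3.31% of all genes called higher and 1.4% lower. Among the 21, 5 had an unadjusted p under 0.05 and a higher level, and the median change was 0.04, beside -0.02 over all genes. The largest was Lpl, lipoprotein lipase, at 1.16 (limma, adjusted p = 0.0535). The count turned on the vehicle array. Against replicate 1 alone 0 of the 21 were called, and against replicate 2 alone 6 were called higher and 4 lower, among 3594 genes in all. Pltp, a phospholipid transfer protein, was 1.69 higher and Scd1, a fatty acid desaturase, 1.57 lower (log2 change -1.57) against replicate 2 alone, and they stood at -0.39 and 0.47 against replicate 1 alone. With BMS961 late 1 of 21 rose and 1 fell, beside 0.818% of all genes called higher and 0.446% lower. Apoe, the apolipoprotein carried by many lipoproteins, fell by 1.41 ± 0.26 (adjusted p = 0.0225), with late BMS961 levels of 10.15 and 9.99, against 11.96 and 10.99 in the vehicle arrays. It lay below both, though these were 0.98 apart. Elovl6, a fatty acid elongase, rose by 0.91 ± 0.19 (adjusted p = 0.0424).

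Against BMS641 late, 5 of the 21 were called higher with ATRA and 1 lower, beside 7.81% and 6.98% of all genes. Lpl was 1.25 higher, Mertk, a receptor for the uptake of dying cells, 0.99 higher, and Apoe 0.95 higher, while Fasn, fatty acid synthase, was 1.40 lower. Blocking on the array set left 0 of the 21 called, and Apoe and Lpl stood at -0.02 and 0.68. Apoe levels on late ATRA arrays were 11.55 and 11.54, against 10.67 and 10.52 with BMS641.

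Genes of sterol handling around LXR were mostly not called with ATRA late against vehicle, where 3.31% of all genes were called higher and 1.4% lower. At those shares lists this short would hold few calls. Of 14 genes of sterol transport and storage 1 rose, Npc1, which moves cholesterol out of late endosomes, at 0.76 ± 0.17 (limma, adjusted p = 0.0317). It was 0.61 against vehicle replicate 1 alone (adjusted p = 0.238). Of 8 oxysterol enzymes and 8 LXR partners and cofactors 0 were called, with 3 and 1 at an unadjusted p under 0.05 and higher. These changes turned on the vehicle array. Against vehicle replicate 2 alone Cyp27a1, among the enzymes, stood at 1.17, Ncoa2, among the partners, at 0.79 and Npc1 at 0.91. Against replicate 1 alone they stood at 0.32, 0.13 and 0.61. In sterol transport Stard4 was at -1.06 against replicate 2 alone and at 0.46 against replicate 1 alone.

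Of 13 other transporters of the ABCA and ABCG families 3 rose late with ATRA, beside 3.31% of all genes. They were Abcg4 at 1.19, Abca3 at 1.14 and Abca5 at 0.99, and 0 fell. Against vehicle replicate 1 alone they were 0.79, 0.67 and 0.68 and no longer called. Against replicate 2 alone they were 1.60, 1.62 and 1.31, so their size and their calls turned on the vehicle array. The median of these 13 was -0.01, beside -0.02 over all genes.

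Against BMS641 late, 3 oxysterol enzymes were called higher with ATRA, among them Cyp39a1 at 1.14 and Cyp27a1 at 0.96, which hydroxylate sterols. In sterol transport 3 were called higher, among them Lipa, the lysosomal acid lipase, at 1.09, and 1 lower, Lcat, at -0.65. Of the ABCA and ABCG genes 4 were called higher. Over all genes 7.81% were called higher and 6.98% lower in that comparison. With the array set as a block 0 of these lists' genes were called.

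The 16 measured genes of sterol synthesis and SREBP2 control were followed beside Srebf1. Their mean level was 9.83, 9.42, 8.73 and 8.86 with ATRA at 2, 6, 24 and 48 h, 9.58 to 9.82 in BMS arrays, and 8.73 and 9.64 in the vehicle arrays. Against BMS641 late 11 of the 16 were called lower with ATRA and 0 higher, beside 6.98% and 7.81% of all genes, with a median of -1.07, beside -0.04 over all genes. Idi1, an isomerase of sterol synthesis, was 2.03 lower, and Insig1, which retains SREBPs in the endoplasmic reticulum, 1.59 lower. Blocking on the array set left 0 called and a median of -0.05. Late against vehicle with ATRA 0 of the 16 were called, beside 3.31% of all genes higher and 1.4% lower. Their median was -0.43, and 5 had an unadjusted p under 0.05 and a lower level. The vehicle arrays differed over these 16 by a median of -1.02, with replicate 1 the lower. Against vehicle replicate 2 alone Idi1 stood at -2.1 and Insig1 at -1.5, while Mbtps1, a protease that cuts SREBPs, stood at 0.56. Against replicate 1 alone they stood at -0.14, -0.1 and 0.15. The list did not move as one: Mbtps1 stood at 11.03 and 11.04 on late ATRA arrays, against 10.88 and 10.48 on vehicle arrays, and Insig2, a paralog of Insig1, at 9.25 and 9.17 with ATRA, against 9.0 and 8.94 with vehicle.

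Vehicle replicate 1 thus read like late ATRA both in Srebf1 and in the mean of this list, and the part of the array set in these values was not tested beyond the block. Within the 12 BMS arrays Srebf1 correlated with the list mean at r = 0.411 (Spearman's rho 0.49), a description with no test. Over the same arrays r was 0.649 for Abcg1, 0.547 for Abca1, 0.252 for Nr1h3 and 0.099 for Mylip. The correlation was thus not particular to Srebf1. No r over all arrays is given because they fell into separate clusters.

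**Figure D4:**
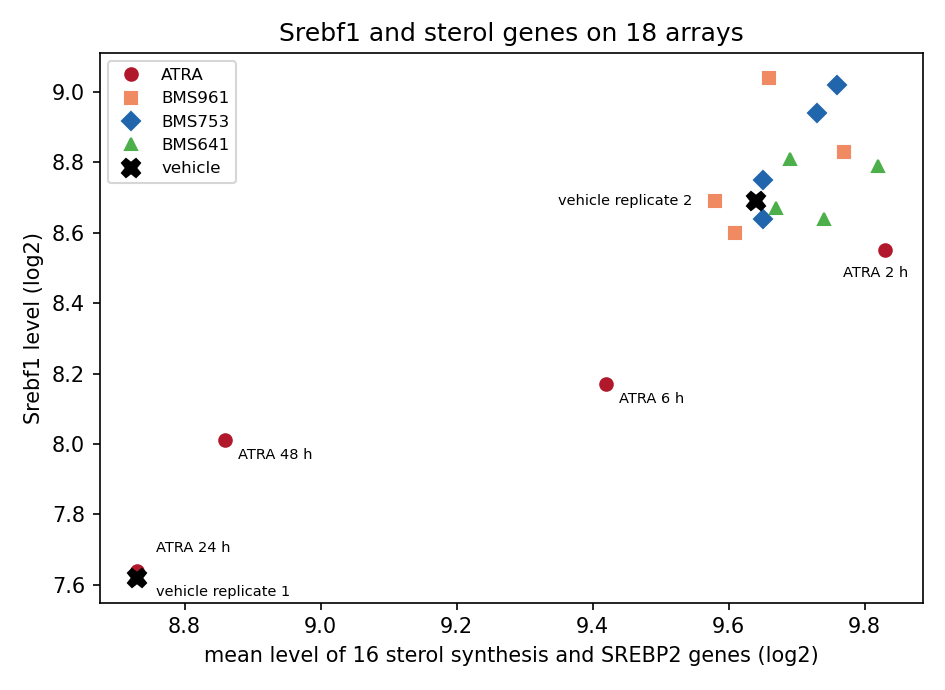
Srebf1 level (log2, vertical axis) against the mean level of 16 sterol synthesis and SREBP2 genes (log2, horizontal axis), 1 point for 1 array. Vehicle replicate 1 lies at 8.73 and 7.62 beside ATRA at 24 h, and vehicle replicate 2 at 9.64 and 8.69 among the BMS arrays.

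The genes most like Abca1 were sought by Pearson r of the log2 level over the 18 arrays among 3214 genes with an SD of at least 0.3. Irak3, an inhibitor of Toll-like receptor signalling, came first with r = 0.95, then Pdgfc, a growth factor, with 0.828, Tmem154 with 0.819, H3c15 with 0.806 and Pqlc3 with 0.788. Over the 12 BMS arrays alone, r was 0.833 for Irak3, 0.618 for Pdgfc, 0.329 for Tmem154, 0.416 for H3c15 and 0.73 for Pqlc3. Irak3 levels with ATRA were 6.44 at 2 h, 6.15 at 6 h, 7.26 at 24 h and 7.32 at 48 h, 6.90 to 7.73 in BMS arrays, and 8.04 and 8.03 with vehicle. It thus shared the low at 6 h of ATRA and the higher vehicle level.

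At the other end were Anpep, aminopeptidase N, with r = -0.859, Steap3, a metalloreductase, with -0.826, and Wt1, a zinc finger factor, with -0.819. Over the 12 BMS arrays r was -0.226 for Anpep, -0.449 for Steap3 and -0.021 for Wt1. The r with Abca1 over the 18 arrays was 0.546 for Abcg1, 0.147 for Srebf1, -0.008 for Mylip and -0.013 for Nr1h3. These values describe arrays that share a design and were chosen as extremes of many genes.

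**Figure D5:**
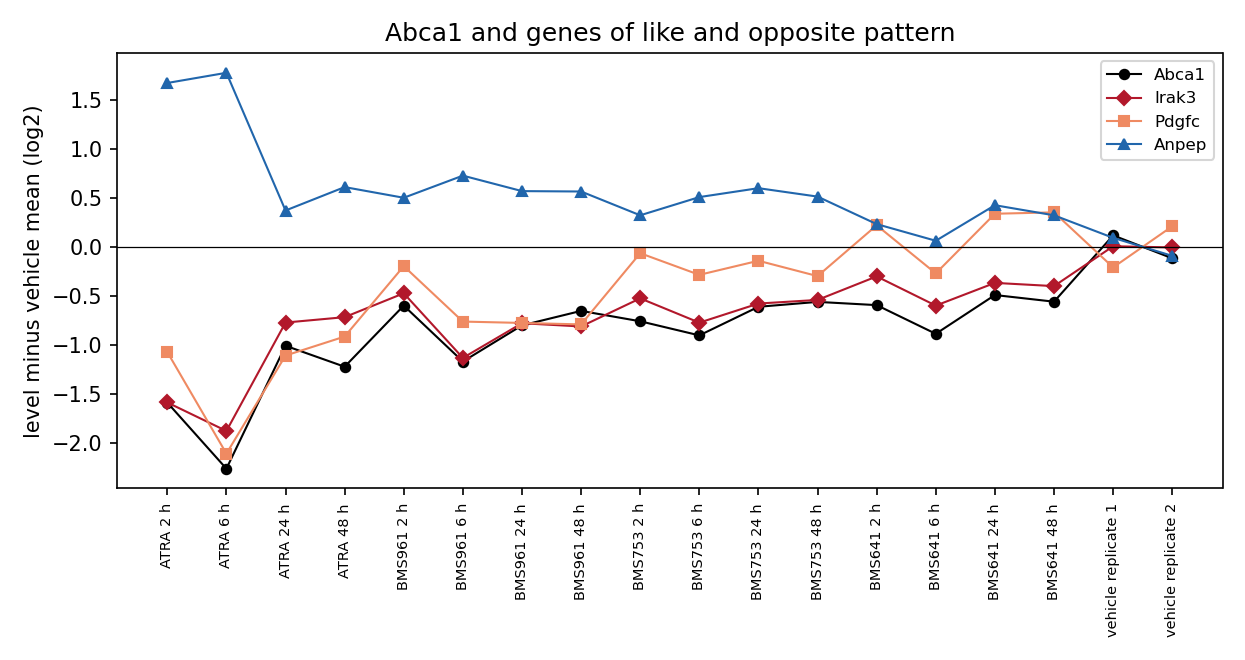
Level minus the vehicle mean (log2, vertical axis) of Abca1, Irak3, Pdgfc and Anpep on the 18 arrays (horizontal axis, by agent and time). Abca1, Irak3 and Pdgfc are lowest at 6 h of ATRA, at -2.27, -1.88 and -2.11, and Anpep is highest there at 1.78.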

How the data were processed

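Biotin-labelled total RNA of F9 cells was measured on Affymetrix whole-transcript arrays, per the labels' protocols. The deposited table held log2 levels of 35556 probe sets on 18 arrays. Per the submitters' processing notes, the authors used RMA and Affymetrix Expression Console 1.1. The values (2.05 to 14.36) were used as deposited. By the platform annotation 21789 probe sets carried 1 gene symbol, 1621 carried several and 12146 were not listed, and 21698 matched an Entrez number. A gene with more than 1 probe set (999 genes) was read from the brightest by mean, which left 19938 genes.

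Groups were taken from the labels' agent and time. limma 3.58.1 under R 4.3.3 fitted the 18 arrays by 9 means, for vehicle and for every retinoid in its early and late window, plus a time step shared by all retinoids within each window (2 to 6 h, 24 to 48 h). Residual degrees of freedom were 7 and eBayes added 4.55. The spread thus rests on the vehicle pair and on how far retinoids leave the shared steps. In each of 12 comparisons a gene was called at an adjusted p under 0.05 (Benjamini-Hochberg, all genes). The fit was tested on simulated data. Tables and figures used pandas 2.3.3, numpy 2.4.6 and matplotlib 3.10.9 in Python 3.11.15. Promoter windows are RefSeq's (GRCm38.p6).

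The members and the 13 other gene lists (142 of 156 listed genes measured, members included) were chosen with earlier results of these data known. Members are named throughout. Of every other list up to 4 called genes a comparison may be named, largest change first, and where none was called the 1 or 2 largest. Genes like Abca1 were the 5 highest and 3 lowest by r. Other settings tried were quantile normalization, median-centred arrays, only genes whose mean exceeds the median gene's, averaging the probe sets of a gene, dropping the shared steps, the array set as a block, and leaving out each array.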

Additional observations from a re-analysis of the deposited data

Results flagged for a closer look

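Late ATRA and late BMS641, at the same dose and times, differed in 2 of the members by limma's test of the difference itself, beside 7.81% of all genes called higher and 6.98% lower. Abca1 was 0.59 lower with ATRA (log2 difference -0.59, adjusted p = 0.0241), with both ATRA arrays below both BMS641 arrays, at 8.0 and 7.78 against 8.52 and 8.45. Mylip was 0.90 higher with ATRA (adjusted p = 0.00332), with both ATRA arrays above both BMS641 arrays, at 6.93 and 7.31 against 6.22 and 6.21. With the array set as a block neither was called (Abca1 -0.82, adjusted p = 0.518; Mylip 0.74, adjusted p = 0.539), and 13 genes were called in all.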

How the results depend on the processing

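No paired analysis by replicate was possible because only the vehicle arrays carry replicate numbers. The times that the retinoids share entered the fit as common steps. Of 736 values of 32 member results under other settings, 678 kept their direction and their side of the threshold. Abca1 late with BMS961 was no longer called under quantile normalization (-0.78, adjusted p = 0.0531) or without common steps (-0.73, adjusted p = 0.146), and ATRA late against BMS641 late in Abca1 neither without common steps (-0.59, adjusted p = 0.078) nor with the array set as a block (-0.82, adjusted p = 0.518). Mylip late with ATRA lost its call under quantile normalization (0.45, adjusted p = 0.0586) and with arrays centred on their median (0.44, adjusted p = 0.0925). In ATRA late against BMS641 late, the array set as a block turned Abcg1 to 0.18 and Srebf1 to 0.24, centring turned Nr1h3 to -0.10, and Srebf1 was called under quantile normalization (-0.86, adjusted p = 0.0417), centring (-0.99, adjusted p = 0.0373) and with genes above the median level only (-0.83, adjusted p = 0.0395). Leaving out either vehicle array also put Srebf1 on the called side in that comparison, at -0.83. The causes were not tested.

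Counts of called genes moved as follows. Quantile normalization gave 1 for BMS753 late against vehicle (37 as reported), 3 for BMS961 early (8 as reported) and 0 for BMS753 late against early (1 as reported). Centring gave 21, 2 and 6 for the same comparisons. Without common steps the counts were 5 for BMS961 early, 1 for BMS753 early (0 as reported), 69 for BMS961 late against early (153 as reported) and 1 for BMS753 late against BMS641 late (0 as reported). Genes above the median level gave 3, and the mean of probe sets 2, for BMS753 late against early, and the mean of probe sets 2 for BMS753 late against BMS641 late. The array set as a block left 13 for ATRA late against BMS641 late (2948 as reported). Centring moved the median of all genes to -0.16 late with ATRA (-0.02 as reported) and to -0.20 against BMS641 (-0.04 as reported). The split of higher and lower calls late with ATRA was 394 and 370 with centring and 520 and 436 with quantile normalization (660 and 280 as reported), and against BMS641 it was 1089 and 2479, and 1537 and 1631 (1557 and 1391 as reported).

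Leaving out 1 array in turn gave 148 to 3594 called genes for ATRA late, 19 to 815 for BMS961 late, 0 to 739 for BMS753 late and 0 to 1024 for BMS641 late. Early it gave 0 to 1441, 0 to 1288 and 0 to 1466 for BMS961, BMS753 and BMS641. Late against early it gave 1 to 767 for BMS961 and 0 to 103 for BMS753, and between retinoids 67 to 4188 for ATRA against BMS641 and 0 to 38 for BMS753 against BMS641. The highest counts came without vehicle replicate 1 for ATRA late, without vehicle replicate 2 for the other comparisons with vehicle, and without either vehicle array alike in the comparisons that use no vehicle. Abca1 ran from -1.25 to -0.99 late with ATRA, called in each, from -0.84 to -0.61 late and -1.0 to -0.77 early with BMS961, from -1.02 to -0.65 early with BMS753, from -0.86 to -0.62 early with BMS641 and from -0.72 to -0.46 against BMS641. Directions turned for Nr1h3 (-0.19 to 0.02) and Srebf1 (-0.87 to 0.20) late with ATRA, Mylip (-0.11 to 0.05) late with BMS961, Abcg1 (-0.31 to 0.16), Nr1h3 (-0.22 to 0.01) and Mylip (-0.11 to 0.05) late with BMS753, Abcg1 (-0.27 to 0.19) and Srebf1 (-0.04 to 1.03) late with BMS641, and Nr1h3 (-0.05 to 0.16) against BMS641.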

Other observations

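Late against early with BMS961, 2 further sterol genes rose. They were Cyp7b1, an oxysterol hydroxylase, at 1.48, and Abca5, a transporter of the ABCA family, at 0.95, both called by limma, beside 0.767% of all genes (153 genes, and 69 without common steps). Abcg4, which moves sterols across membranes, rose late with BMS961 against vehicle by 1.07 (limma, adjusted p = 0.0442), where 0.818% of all genes were called higher. Its late BMS961 levels were 6.34 and 6.56, above vehicle arrays of 5.79 and 4.97 that were 0.81 apart. The size of its rise thus turned on the vehicle array.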
